A study of Danio rerio with 4 samples.

Results

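The Notch ligands jag2b, dla, dlc and dld, the receptors notch1a and notch3, the repressors her2, her6 and her9 and the feedback inhibitor nrarpb were followed in GFP-positive kidney cells of zebrafish (Danio rerio) embryos. Members were taken by gene symbol: each probe set that the probe annotation assigns to 1 of these 10 genes and to no other, which gave 16 of the 15617 probe sets on the array. A probe set is a group of short probes that report 1 transcript or a group of similar transcripts. All 10 genes had at least 1 probe set. dlc had 3, nrarpb 4 and notch1a 2, and the other 7 genes had 1 each.

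The cells came from miR-34b morphants, that is, embryos in which a morpholino targeted the microRNA miR-34b (n = 2 arrays), and from embryos injected with a control morpholino (n = 2 arrays). Morpholinos are antisense oligomers that block an RNA's splicing, translation or processing. All embryos, control and morphant, were of the AB strain, carried the transgene Tg(cmyb:EGFP), in which the cmyb promoter drives EGFP, and were taken 3 days after fertilization. From dissected kidney-containing tissue, 20000 GFP-positive cells were sorted per the labels' protocols, so a sample holds cells of many embryos, and the sources used here do not give the number of embryos. The design text speaks of independent sets of biological replicates, 2 in number. The study asked which transcripts differ in multiciliated cells when miR-34b is targeted.

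Notch signalling passes between neighbouring cells. Delta and Jagged ligands on one cell bind Notch receptors on the next, the receptor is cut, and its inner part enters the nucleus, where with RBPJ it activates genes such as those of the Hes and Her repressors and of Nrarp. In the zebrafish pronephros, the embryonic kidney, precursors choose between a multiciliated and a transporting fate, and jag2b and notch3 are known to hold down the number that become multiciliated. In frog epidermis and human airway cells, microRNAs of the miR-449 family, which share a seed with miR-34, lower Notch pathway transcripts.

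Of the 6 multiciliated cell markers with a probe set, out of 12 listed, 5 lay above the background on all 4 arrays (efhc2, foxn4, rfx2, spag6 and tekt1), and dnah9 lay above it on 1 of the 4. Markers of other cells were also present, with 7 of 7 myeloid and 8 of 8 skeletal muscle markers with a probe set above it on all 4 arrays. Over the 4 arrays, their summed linear signal ran from 71450 to 77008 for myeloid and from 58364 to 85419 for skeletal muscle markers. For the 6 multiciliated cell markers it ran from 3136 to 13391. Sums over different genes do not give shares of cells. Background here means the brightest of 20 control probe sets for tag and bacterial sequences, at 4.43 and 4.11 (log2) on morphant replicates 1 and 2 and at 4.93 and 3.71 on control replicates 1 and 2. The mean of the poly-A spike-in controls was 9.52 and 8.72 (log2) on the morphant arrays and 9.91 and 9.87 on the control arrays. Control probe sets at the 3' and 5' ends of a transcript serve as a mark of RNA quality. For gapdh the 3' minus 5' difference was 0.36 and 0.94 (log2) on the morphant arrays and 1.02 and 0.88 on the control arrays. For acta1 it was 2.38 and 3.39 on the morphant arrays and 2.54 and 2.47 on the control arrays. The part of RNA quality in the members' differences was not tested. In bulk RNA a smaller number of cells of a type and less RNA per cell cannot be told apart.

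No member probe set passed the test. Differences are log2 signals, morphant minus control, fitted with limma over 11626 probe sets and adjusted by the Benjamini-Hochberg method, with a threshold of 0.05 on the adjusted p. Of the 16 member probe sets, 11 stood above the filter on dim probe sets and were tested, and 5 did not (both of notch1a, 1 of dlc and 2 of nrarpb). The counts were 0 higher and 0 lower, while among all probe sets tested the shares called were 2.49% on the higher and 0.120% on the lower side. By the unadjusted p, with the same threshold, the ligand jag2b and the repressor her2 were on the higher side and 2 probe sets of nrarpb on the lower side, so 2 of 11 each way, against 11.6% and 6.10% of all probe sets tested. Both morphant arrays lay above both control arrays in 4 member probe sets (jag2b, dla, her2 and her6) and below them in 3 (dld and 2 of nrarpb), and the groups overlapped in the other 4. Over all probe sets tested, 25.1% had separate groups with the morphants above and 24.7% with the morphants below. The median difference of the 11 was 0.042, and that of all probe sets tested was -0.017. With 2 arrays a group, an exact two-sided permutation test of a single probe set cannot go below p = 0.333.

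**Figure D1:**
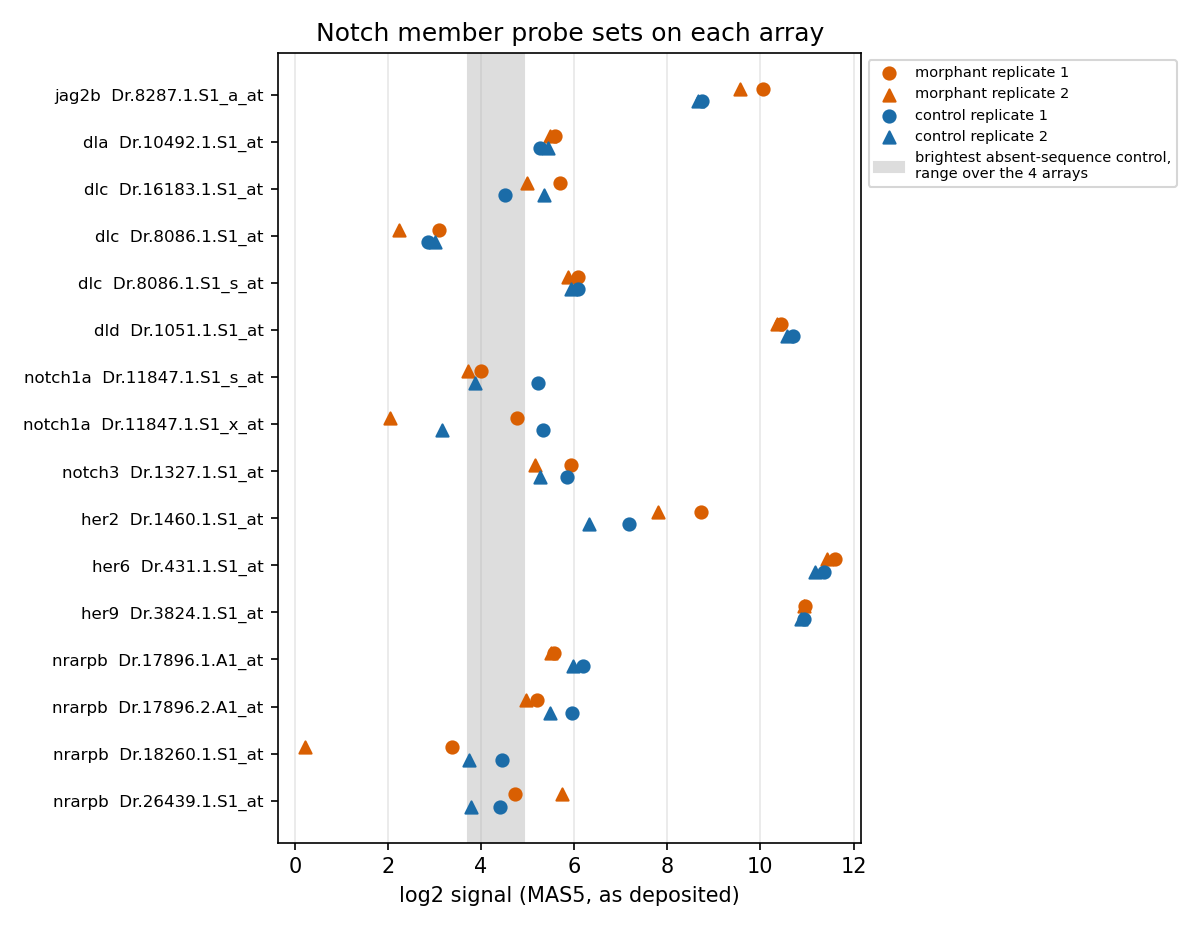
Log2 signal of the 16 member probe sets (rows) on each array, with morphant arrays in orange above control arrays in blue, replicate 1 as circles and replicate 2 as triangles; the grey band spans the background levels of the 4 arrays, 3.71 to 4.93. The groups of jag2b and her2 stand apart with the morphants to the right, the points of dla, her6 and her9 lie close together, and both probe sets of notch1a, 2 of dlc and 2 of nrarpb have at least 1 point in the band or to its left.

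Among the ligands, jag2b had the clearest separation. jag2b encodes a Jagged ligand, a membrane protein that binds Notch on the adjacent cell. Its log2 signal was 10.06 and 9.56 on the morphant arrays and 8.74 and 8.66 on the control arrays. Both morphant arrays were above both control arrays, and the gap between the groups, 0.81, was larger than the spread within either. The difference was 1.11 ± 0.22 (SE), or 2.15-fold, with a 95% interval of 0.54 to 1.67, and it did not pass limma's test (adjusted p = 0.0801). By unadjusted p it ranked 525 of 11626. Its adjusted p ran from 0.0163 to 0.235 over 14 alternative settings. jag2b passed in 3 of them, with a pseudocount of 64 (adjusted p = 0.0213), with a filter that drops the dimmer 50% of probe sets (adjusted p = 0.0317) and with a variance trend in limma (adjusted p = 0.0163). In that order, 495 of 11626, 382 of 7751 and 483 of 11626 probe sets were called higher, against 290 of 11626 in the main fit.

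Multiciliated cell markers were also higher on the morphant arrays. As the marker lists were chosen with earlier results of these data known, this rise is not an independent result. Of the 6 multiciliated cell markers with a probe set, 5 passed limma's threshold on the higher side and 0 on the lower. Among all probe sets tested, 2.49% and 0.120% did. dnah9, the remaining marker, was under the filter and was not tested. The median difference of the 6 was 1.96. Their summed linear signal was 13391 and 12510 on the morphant arrays and 3136 and 3256 on the control arrays. Of the 8 genes with a probe set, out of 11 listed for the transporting epithelium of the pronephros, 1 passed on the higher side and 0 on the lower. Among all probe sets tested, the shares were again 2.49% and 0.120%. The list mixes transporters with pronephric genes such as pax2a, hnf1bb and cdh17, so it does not mark the transporting fate alone. The marker that passed was the chloride channel clcnk (1.55 ± 0.21, adjusted p = 0.0320), and the median of the 8 was 0.34. Of the 8, 5 had separate groups with the morphants above and 1 with the morphants below, against 25.1% and 24.7% of all probe sets tested. The summed signal of the 8 was 5221 and 5047 on the morphant arrays and 4100 and 4406 on the control arrays. slc12a3 was not above background on any array, was under the filter and was not tested. The part of either cell type's markers in the jag2b difference was not tested.

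The Delta ligands differed less. dld, a ligand that acts in somite formation and in neurogenesis, had a log2 signal of 10.44 and 10.35 on the morphant arrays and 10.69 and 10.58 on the control arrays. The morphant arrays were below the control arrays by a gap of 0.13. The difference was -0.24 ± 0.16 (SE), with a 95% interval from -0.65 to 0.18 (adjusted p = 0.526). dla, a Delta ligand of the nervous system, had 5.58 and 5.47 on the morphant arrays and 5.26 and 5.43 on the control arrays. These groups were separated by only 0.044, and the difference of 0.18 ± 0.17 (adjusted p = 0.641) was about the size of its error.

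dlc, the Delta ligand of the segmentation clock in zebrafish, was covered by 3 probe sets. One of the _s_at type, which can match several related transcripts, gave 6.08 and 5.87 on the morphant arrays and 6.07 and 5.93 on the control arrays, a difference of -0.025 ± 0.18 (adjusted p = 0.960). Another gave 5.69 and 4.99 on the morphant arrays and 4.51 and 5.36 on the control arrays, of which control replicate 1 was under its background. In both probe sets the groups overlapped, and the second difference was 0.41 ± 0.37 (adjusted p = 0.635). It was -0.015 without control replicate 1 and 0.83 without control replicate 2. The last dlc probe set was not above background on any array, at 3.10 and 2.23 on the morphant arrays and 2.86 and 3.00 on the control arrays.

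The member receptors notch3 and notch1a gave little signal on this array. notch3, a receptor of the pronephros and of the mural cells around vessels, had 5.93 and 5.17 on the morphant arrays and 5.84 and 5.27 on the control arrays. The groups overlapped almost fully, and the difference was -0.0044 ± 0.33, with a 95% interval from -0.85 to 0.84 (adjusted p = 0.996). A difference within that interval is not excluded by these arrays. The interval is not adjusted for the number of probe sets and does not mark the smallest difference the test could call. Mural cell markers with a probe set (4 of 8 listed) had a summed signal of 2437 and 1537 on the morphant arrays and 3572 and 4282 on the control arrays. Of these, 0 passed and 3 had separate groups with the morphants below (acta2, desma and tagln), against 24.7% of all probe sets tested. The groups of rgs5a overlapped, and it was under the filter and was not tested. Of the skeletal muscle markers, 0 passed and 4 of 8 also had separate groups with the morphants below, and 0 with the morphants above. Among all probe sets tested, 24.7% and 25.1% had such groups. Few of all probe sets tested passed, 2.49% on the higher and 0.120% on the lower side, so 0 in lists this short says little. The part of either cell type's markers in the notch3 value was not tested.

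notch1a, the other member receptor, was not measured well enough to be tested. Its probe set of the _s_at type gave 3.995 and 3.713 on the morphant arrays, under the background of each, and 5.22 and 3.87 on the control arrays. With the morphant arrays set at their backgrounds, the control mean was 1.21-fold higher. That value is no firm minimum, since the groups overlapped and control replicate 2 was itself under both morphant backgrounds. That of the _x_at type, which is prone to cross-hybridise, gave 4.77 and 2.04 on the morphant arrays and 5.33 and 3.15 on the control arrays. In each group 1 array was above background, and replicates of one group differed by more than the groups did. In a fit without the filter the differences were -0.69 ± 0.52 (adjusted p = 0.636) and -0.84 ± 1.3 (adjusted p = 0.822).

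her2 had the largest difference among the members tested, and replicates that spread widely. It encodes a Hes5-like repressor of the bHLH family. Its log2 signal was 8.72 and 7.80 on the morphant arrays and 7.17 and 6.33 on the control arrays. Both morphant arrays lay above both control arrays by a gap of 0.62, and within each group the arrays differed by more than that gap. The difference was 1.51 ± 0.42 (SE), or 2.85-fold, with a 95% interval from 0.45 to 2.57, and it did not pass (adjusted p = 0.160). Its adjusted p ran from 0.0413 to 0.353 over the 14 alternative settings, and her2 passed in 1 of them. With each array left out in turn it ran from 1.05 without morphant replicate 1 to 1.97 without morphant replicate 2.

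Hes5-like repressors also act in neural progenitors. The summed signal of 9 of 13 listed markers of these cells overlapped between the groups, at 2103 and 1463 on the morphant arrays and 1605 and 3174 on the control arrays. Of the 9, zic1 and zic2a were under the filter and were not tested, and 0 of the others passed. Among all probe sets tested, 2.49% passed on the higher side and 0.120% on the lower. Groups were separate with the morphants below in 2 of the 9, sox3 and the untested zic1, against 24.7% of all probe sets tested. Neuron markers stood higher on both morphant arrays, with a summed signal over 9 of 10 listed genes of 3301 and 3485 on the morphant arrays and 2374 and 1803 on the control arrays. Of them, 0 passed and 7 had separate groups with the morphants above, against 25.1% of all probe sets tested. The part of these cells in the her2 difference was not tested.

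The 2 Hes1-like repressors her6 and her9 were measured with small errors and did not pass. her6 had 11.60 and 11.42 on the morphant arrays and 11.38 and 11.17 on the control arrays. Its groups were separate by 0.046, and the difference was 0.24 ± 0.18 with a 95% interval from -0.22 to 0.69 (adjusted p = 0.559). her9, which is expressed under Notch control in the zebrafish pronephros, had 10.97 and 10.94 on the morphant arrays and 10.94 and 10.88 on the control arrays. Control replicate 1 lay between the morphant arrays, and the difference was 0.042 ± 0.16 (adjusted p = 0.925), turning to -0.038 after median centring. Its 95% interval ran from -0.36 to 0.44.

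nrarpb, a feedback inhibitor that binds the cut Notch receptor and is itself switched on by Notch, gave probe sets that disagreed in direction. The first had 5.56 and 5.50 on the morphant arrays and 6.18 and 5.96 on the control arrays, separate by 0.40. The difference was -0.54 ± 0.17 (adjusted p = 0.201). A second had 5.19 and 4.97 on the morphant arrays and 5.96 and 5.49 on the control arrays, a difference of -0.64 ± 0.23 (adjusted p = 0.235). Both had all 4 arrays above background and the morphants below the controls, and with a pseudocount of 64, which shrinks dim signals, the differences were -0.25 and -0.26. Another nrarpb probe set pointed the other way, with 4.73 and 5.74 on the morphant arrays and 4.41 and 3.78 on the control arrays. It stood under the filter, control replicate 1 was under its background, and in the fit without the filter the difference was 1.14 ± 0.46 (adjusted p = 0.421). The remaining one was not above background on either morphant array (3.37 and 0.21) and was above it on 1 of the control arrays (4.45 and 3.74), so no fold is given. No direction for nrarpb was common to its probe sets.

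**Figure D2:**
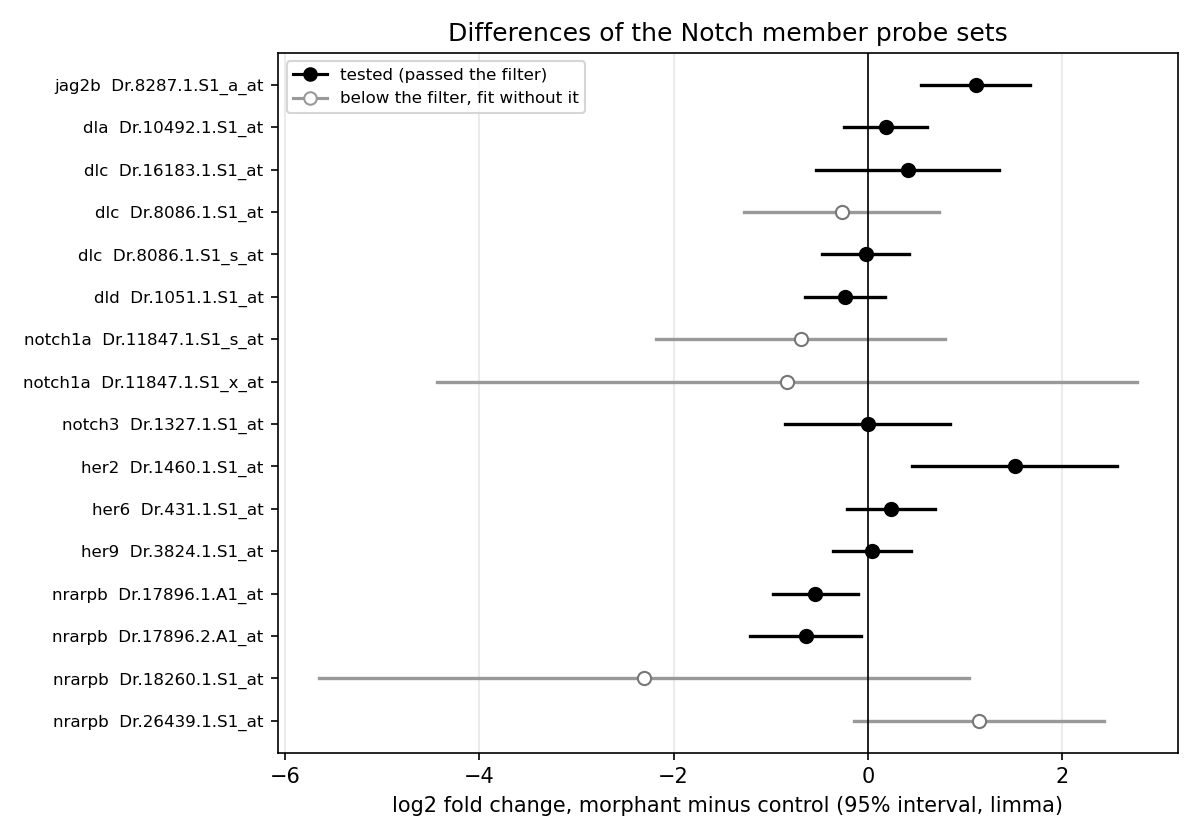
Log2 fold change, morphant minus control, of the 16 member probe sets with 95% intervals from limma. Filled points are the 11 probe sets tested, and open points are the 5 under the filter, taken from the fit without it; jag2b (0.54 to 1.67), her2 (0.45 to 2.57) and 2 nrarpb probe sets have intervals that leave out 0, before any adjustment for the number of probe sets.

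**Figure D3:**
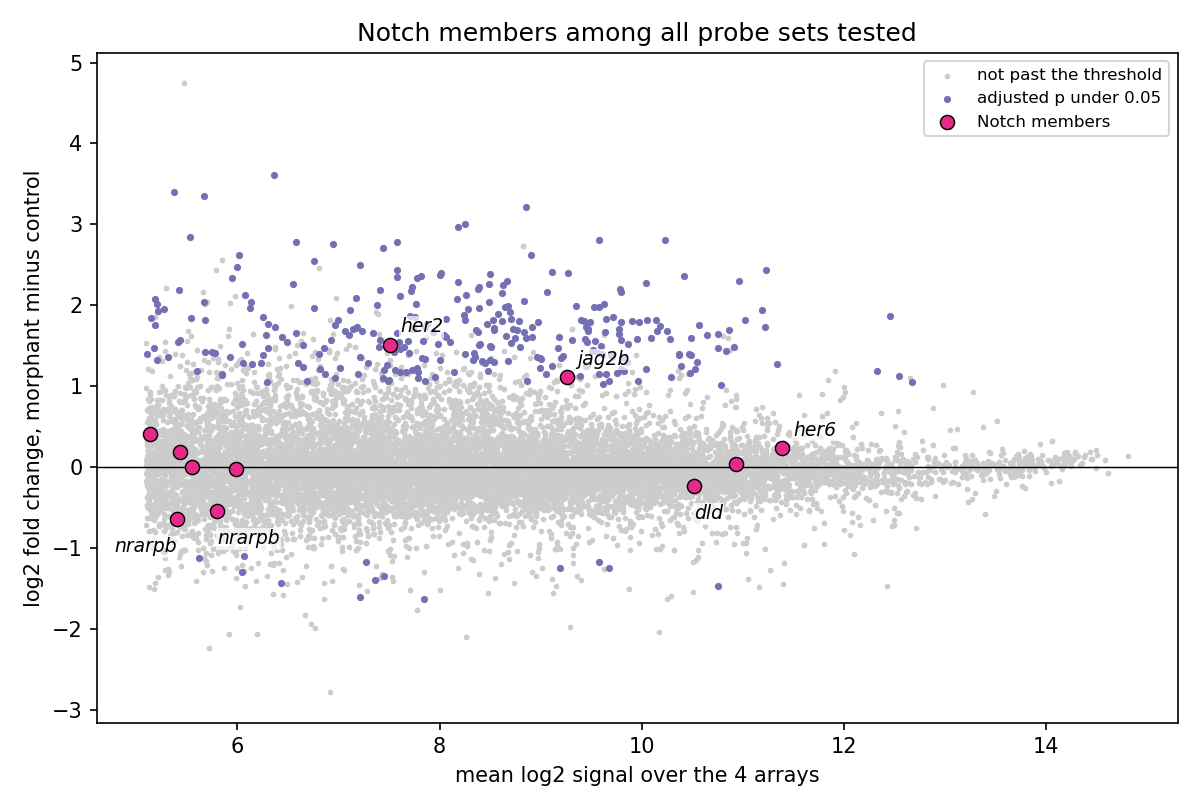
Log2 fold change, morphant minus control, against the mean log2 signal for the 11626 probe sets tested, with those past the threshold in purple and the 11 member probe sets in pink. her2 at 1.51 and jag2b at 1.11 lie among probe sets that passed, and the other members lie within the grey cloud.

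The rest of the pathway was described with a list of 99 genes beside the members, of which 47 had a probe set (64 in all). In limma's test 0 of 42 probe sets above the filter passed in either direction. Among all probe sets tested, 2.49% passed on the higher side and 0.120% on the lower. The median difference of the 42 was 0.048, and that of all probe sets tested was -0.017. The smallest adjusted p of the 42 in limma's test was 0.143. By unadjusted p under 0.05, 4 (jag1b, dtx2, adam10b and her3) were on the higher side and 1, of notch2, on the lower, so 4 and 1 of 42, against 11.6% and 6.10% of all probe sets tested. Groups were separate in 15 of the 42 (35.7%) with the morphants above and in 8 (19.0%) with the morphants below, against 25.1% and 24.7% of all probe sets tested, and overlapped in 19.

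Of the other ligands, jag1b, a second Jagged gene, had 7.80 and 6.73 on the morphant arrays and 6.07 and 6.29 on the control arrays. Both morphant arrays were above the controls, replicate 1 by far the most, and the difference was 1.08 ± 0.37 (adjusted p = 0.224). Its relative jag1a had -0.078 ± 0.20. lfng, a Fringe enzyme that adds sugar to Notch, had 0.45 ± 0.19 (adjusted p = 0.302), and rfng, another Fringe, had -0.18 ± 0.18.

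notch2, a receptor outside the member list, had 3 probe sets above the filter, each with a negative difference. One of them had 9.13 and 9.15 on the morphant arrays and 9.51 and 9.60 on the control arrays, with separate groups and a difference of -0.41 ± 0.16 (adjusted p = 0.272). The other 2 gave -0.58 and -0.29. notch1b was not above background on any array.

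Of the genes that cut or modify Notch, adam10b, a protease that cleaves the receptor outside the cell, had 8.10 and 8.05 on the morphant arrays and 7.66 and 7.67 on the control arrays. The 2 groups were separate and each was tight, and the difference was 0.41 ± 0.16 (adjusted p = 0.272). The gamma-secretase subunits aph1b and psenen, which cut it within the membrane, had 0.36 ± 0.16 and 0.29 ± 0.19, while psen2, the catalytic presenilin, had -0.30 ± 0.20. dtx2, a Deltex ubiquitin ligase, had the smallest adjusted p of the list, at 0.71 ± 0.19 (adjusted p = 0.143), with 7.84 and 7.96 on the morphant arrays and 7.34 and 7.04 on the control arrays. sel1l had 0.30 ± 0.19.

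In the nucleus, hdac1, a deacetylase of repressor complexes, had 0.016 ± 0.16. The brightest probe set of tle3b, a Groucho corepressor that works with Her proteins, had 0.54 ± 0.27 (adjusted p = 0.381). Its other probe sets above the filter had 0.18 ± 0.24 and 0.35 ± 0.36, each with overlapping groups. In the list of targets, her3, which in zebrafish Notch is known to repress, had 6.01 and 6.16 on the morphant arrays and 5.62 and 4.35 on the control arrays. Its groups were separate, with a difference of 1.096 ± 0.42 (adjusted p = 0.275), and its other probe set was not above background on any array. nrarpa, the paralog of nrarpb, gave 4 probe sets with differences from -0.70 to 0.17, none past the threshold, and hes6 had -0.14 ± 0.19. Of the proneural genes that Notch restrains in neural tissue, insm1b had 0.61 ± 0.34 (adjusted p = 0.432) and neurod6b -0.023 ± 0.23.

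**Figure D4:**
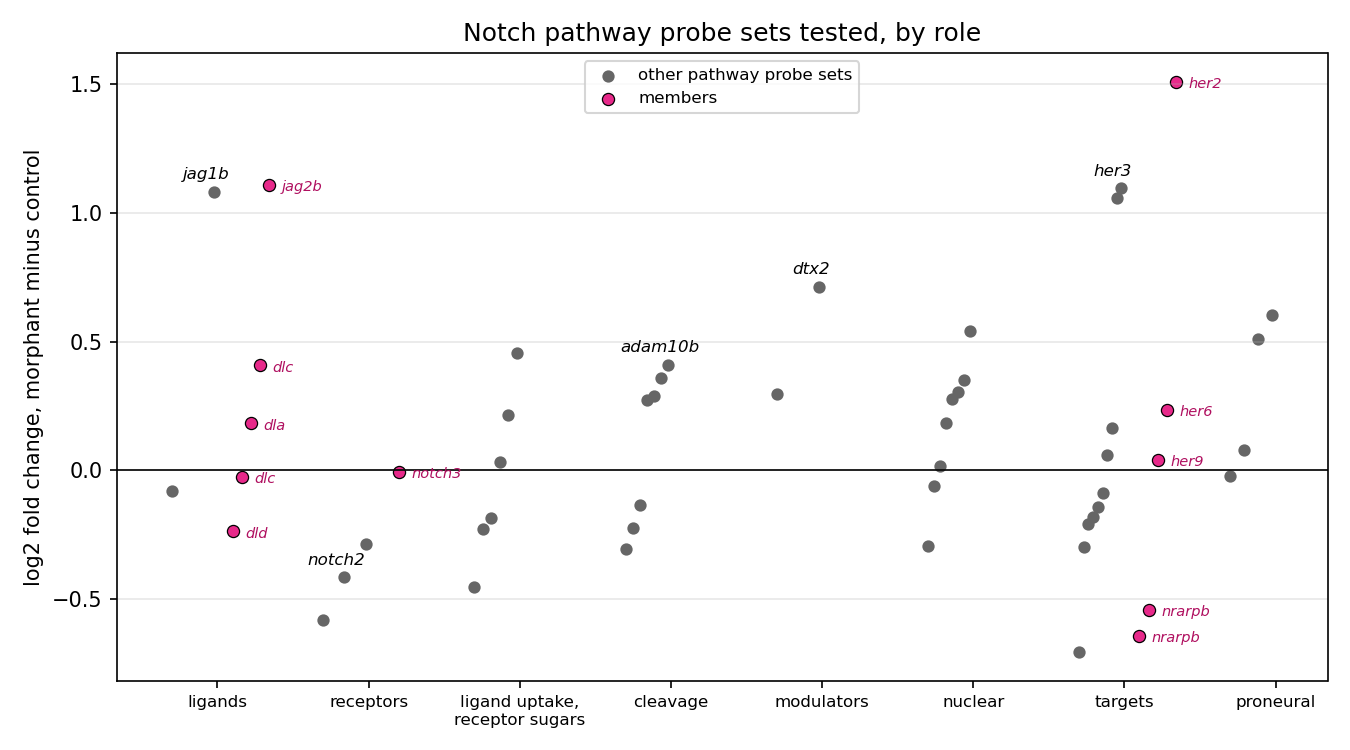
Log2 fold change, morphant minus control, of the Notch pathway probe sets above the filter, by role, with members in pink and the 42 other probe sets in grey (the gene is named where it is a member or has unadjusted p under 0.05). Values lie on both sides of 0 in most roles, the 3 notch2 probe sets lie below 0, and jag2b, jag1b, her2, her3 and her15.2 lie above 1.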

How the data were processed

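RNA was amplified and put on an Affymetrix array, per the labels' protocols. The deposited values are log2 signals, for which the submitters' processing notes name MAS5 without a version; the authors' arrays had a common 2% trimmed mean of 500.1 on the linear scale. Detection calls were not used here. After removal of 115 control probe sets and of the dimmest 25% of the others (mean below 5.10 log2), 11626 remained for limma 3.58.1, run in R 4.3.3 (1 group term, moderated variances, Benjamini-Hochberg adjustment); members under the filter were fitted without it. The code of the fit was checked on simulated data drawn from limma's own model, which cannot show how the fit does on real arrays. The number of arrays limits the precision.

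Members, gene lists and tests were chosen with earlier results of these data known. Genes named beside the members are those of the pathway list with unadjusted p under 0.05 and separate groups (at most 12) and up to 2 bright genes per role; psen2, ascl1b and the her15.2 and her4 probe sets were chosen after their values were seen. Marker lists used the brightest probe set per gene and summed linear signals. Updating symbols through a RefSeq table (GRCz12tu) changed 1 symbol. The replicate numbers were not taken as pairs, since no label ties same-numbered samples to a shared origin. Alternatives covered pseudocounts of 16 and 64, the filter, the scaling, the variance prior, the replicate number as a block and each array left out.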

Additional observations from a re-analysis of the deposited data

How the results depend on the processing

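The member count of 0 higher became 1 with a pseudocount of 64, with the dimmest 50% left out and with a variance trend (jag2b each time), and 1 with the replicate block (her2, adjusted p = 0.0413). In that order, 495 of 11626, 382 of 7751, 483 of 11626 and 196 of 11626 probe sets were called higher. The main fit called 290 of 11626. The deviations of same-numbered arrays from their group means correlated at r = 0.021 over the 11626 probe sets and at 0.448 over the 16 member probe sets, across probe sets that are not independent, and 2 numbers are too few to take them as pairs. Lower members, and the other pathway genes in either direction, stayed at 0 in all 14. notch3 was -0.0044 and turned to 0.00088 and 0.0035 with pseudocounts of 16 and 64, and her9 to -0.038 after median centring. With each array left out, notch3 ran from -0.39 to 0.38, and dlc from -0.015 to 0.83 in 1 probe set and from -0.13 to 0.080 in the other. The cause was not tested. jag2b (0.86 to 1.36), her2 (1.05 to 1.97), dla, dld, her6 and both tested nrarpb probe sets kept their sign in every alternative that tested them.

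Over all probe sets, 290 were called higher and 14 lower. The counts were 495 and 81 with a pseudocount of 64, 483 and 103 with a variance trend, 47 and 7 without control replicate 1, and 53 and 1 without control replicate 2. They were 0 and 0 without the filter (1380 and 647 at unadjusted p under 0.05), without morphant replicate 1 (1089 and 828) and without morphant replicate 2 (1276 and 727). Lower calls were 34 with a pseudocount of 16, 63 with the lowest 50% left out, 8 after quantile and 7 after cyclic loess scaling. Probe sets near background carry no direction.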

Other observations

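her15.2, another Hes5-like gene, was among the pathway probe sets tested. It had a log2 signal of 8.23 and 6.70 on the morphant arrays and 6.37 and 6.45 on the control arrays, a difference of 1.06 ± 0.50 that did not pass limma's test (adjusted p = 0.358) and in which morphant replicate 1 stood far above the other arrays. A second probe set, left out of the pathway list because its annotation names her15.2 more than once, had 8.05 and 7.36 on the morphant arrays and 6.73 and 7.04 on the control arrays. Its groups were separate with the morphants above, and the difference of 0.82 ± 0.28 did not pass limma's test (adjusted p = 0.225). A probe set annotated to her4.1, her4.3 and her4.5 together had 6.99 and 6.11 on the morphant arrays and 5.57 and 6.35 on the control arrays, with overlapping groups. Its difference was 0.59 ± 0.39. Of the further her4 probe sets, one of her4.5 was tested, at 0.061 ± 0.30 with overlapping groups. The rest were under the filter, with differences from 0.16 to 0.80. Of those, both of her4.2 had separate groups with the morphants above. The proneural gene ascl1b was above background on both morphant arrays, at 5.38 and 5.26, and on neither control array, at 4.53 and 3.62. It stood under the filter and was not tested. The contrast rests on each array's own background, at 4.93 and 3.71 on control replicates 1 and 2. The value of control replicate 1 lay above both morphant backgrounds, 4.43 and 4.11.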
